A study of Mus musculus with 6 samples.

Results

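The mouse mitochondrial chromosome carries 13 protein genes, and 10 of them are described here across 6 femur RNA-seq libraries. They are mt-Nd1, mt-Nd2, mt-Nd3, mt-Nd4, mt-Nd5 and mt-Nd6 of respiratory complex I, mt-Cytb of complex III, mt-Co1 and mt-Co2 of complex IV, and mt-Atp8 of complex V. They were taken by symbol from 22824 listed genes and were chosen by their mitochondrial origin and by their FPKM in these libraries, whose difference between OE and Ctrl had been seen. Their levels and group differences are therefore a description, with no test. The genes mt-Atp6, mt-Co3 and mt-Nd4l, the 2 ribosomal RNA genes and the 22 transfer RNA genes of the same chromosome had no matched row. They were not analysed here, and the sums and shares given below lack them.

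The libraries came from femurs of C57BL/6 mice and were made from total RNA with paired-end sequencing. Both groups carried the R26-Wnt7b allele, a Wnt7b transgene at the R26 locus that Cre switches on. The 3 OE libraries came from mice that also had the 9.6kb DMP1-Cre transgene, whose Dmp1 sequence is active in osteocytes and mature osteoblasts, and the submitters describe the OE mice as homozygous. The 3 Ctrl libraries came from littermates labelled R26-Wnt7b alone. The sources used here do not give the age of the mice or say whether a library was 1 mouse or a pool. P-values therefore measure only the spread between these libraries, which may be technical.

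Values are FPKM, fragments counted per kilobase of transcript and scaled by how many fragments each library mapped, so levels of different genes are compared per length. Absolute depth is unknown. Relative depth, read from the steps between the lowest values, ran from 1 to 1.18. Wnt7b had 2.49, 0.661 and 0.295 FPKM in OE 1, 2 and 3, then 0.909 for the library labelled Ctrl 1, 0.00833 for Ctrl 2 and a listed 0 for Ctrl 3. The library labelled Ctrl 1 thus lay above OE 2 and OE 3 in the gene the mice were built to express, and many values that rest on it are also given without it. The labels describe the femurs as cleared of cartilage and marrow. All 8 osteoblast and osteocyte markers were above 0 in every library, with a summed level of 4159 to 6730 FPKM among OE libraries, with 5833 for the library labelled Ctrl 1, 452 for Ctrl 2 and 363 for Ctrl 3. The 8 neutrophil markers summed to 58366 to 164122 FPKM, the 8 cartilage markers to 21.0 to 429, and the 7 skeletal muscle markers with a row to 229 to 1735. In bulk RNA, fewer cells of a type and less RNA per cell cannot be told apart.

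Mitochondrial genes are read from both strands as long precursor RNAs, and messenger RNAs are released by cutting at the transfer RNAs that lie between most of them. No transfer RNA gene lies between mt-Atp8 and mt-Atp6 or between mt-Nd4l and mt-Nd4, which overlap. The messengers have almost no untranslated sequence, and a short poly(A) tail completes the stop codon of some. Their products are core membrane subunits of complexes I, III and IV, which pump protons, and of the ATP synthase, also called complex V. All other subunits, and the whole of complex II, are encoded in the nucleus.

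The first 24 bases of 8 members are shown because they share a start within a few bases of a transfer RNA gene, which the choice of members did not use. mt-Atp8 and mt-Nd4 are shown with the overlaps. The first codon is in capitals, each sequence reads 5′ to 3′ from GENCODE M21 transcripts on GRCm38, and chromosome M positions are given with the strand.
mt-Nd1 (chrM:2751-2774, plus): GTGttctttattaatatcctaaca
mt-Nd2 (chrM:3914-3937, plus): ATAaatcctatcacccttgccatc
mt-Nd3 (chrM:9459-9482, plus): ATTaacctgtacactgttatcttc
mt-Nd5 (chrM:11742-11765, plus): ATCaatattttcacaacctcaatc
mt-Nd6 (chrM:14047-14070, minus): ATGaataattatatttttgtttta
mt-Co1 (chrM:5328-5351, plus): ATGttcattaatcgttgattattc
mt-Co2 (chrM:7013-7036, plus): ATGgcctacccattccaacttggt
mt-Cytb (chrM:14145-14168, plus): ATGacaaacatacgaaaaacacac
Of the 10 members, 6 begin with ATG and the others with GTG, ATA, ATT or ATC, which the mitochondrial code also accepts as starts. On the 5′ side, 0 to 5 bases separate each member except mt-Nd4 from its neighbour, which in these 9 cases is a transfer RNA gene. mt-Nd4 overlaps mt-Nd4l.

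The overlaps are shown in capitals because fragments from shared bases cannot be assigned to 1 gene. mt-Atp8 is shown whole, with the 43 bases it shares with mt-Atp6 in another reading frame. mt-Nd4 begins inside the last 7 bases of mt-Nd4l. mt-Nd5 and mt-Nd6 end in each other on opposite strands over 14 bases.
mt-Atp8 (chrM:7766-7969, plus): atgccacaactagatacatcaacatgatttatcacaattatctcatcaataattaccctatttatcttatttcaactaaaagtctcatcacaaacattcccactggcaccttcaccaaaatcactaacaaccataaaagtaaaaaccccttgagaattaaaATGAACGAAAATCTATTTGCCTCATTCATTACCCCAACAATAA
mt-Nd4 (chrM:10167-10196, plus): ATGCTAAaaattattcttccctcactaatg
mt-Nd5 (chrM:13536-13565, plus): attatcttatactcaaTTAATCTCGAGTAA
mt-Nd6 (chrM:13552-13581, minus): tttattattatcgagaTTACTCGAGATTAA
At their 3′ ends, 2 members stop 1 base past the last whole codon, a T in capitals here, which is the first base of a stop codon.
mt-Nd4 (chrM:11521-11544, plus): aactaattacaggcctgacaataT
mt-Cytb (chrM:15265-15288, plus): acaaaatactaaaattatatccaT
The 9 members on the plus strand are poor in G, from 5.9% of bases in mt-Atp8 to 16.1% in mt-Co1. mt-Nd6, the 1 member on the minus strand, has 28.1% G and 6.0% C. The strand setting of the counting is not given in the sources used here, so fragments of the RNA antisense to mt-Nd6 cannot be told apart from mt-Nd6.

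Nuclear copies of mitochondrial DNA can also share fragments with the members. Among GENCODE M21 transcripts, 20 nuclear copies matched a mitochondrial protein gene over at least 100 bases with at least 85% identity. Copies with at least 99% identity numbered 7, all on chromosome 1, and 4 of them match members. Gm28661 matches mt-Co2 over 681 of its 684 bases with 100% identity, and Gm28438 matches mt-Nd3 over 345 of 348 bases with 99.7%. Gm28439 matches mt-Nd4 over 876 bases with 100% identity, and Gm29216 matches mt-Co1 over 483 bases with 99.8%. The other 3 match mt-Atp6, mt-Co3 and mt-Nd4l with 100% identity, over 678, 783 and 294 bases. Of the 20 copies 1 was measured, the mt-Nd5 copy Gm4076, which was listed at 0 in 5 libraries and at 0.0780 FPKM in OE 3. How fragments that fit 2 places were counted is not given in the sources used here, so mt-Co1, mt-Co2, mt-Nd3 and mt-Nd4 carry that uncertainty. mt-Atp8 lies between mt-Co2 and mt-Atp6, which both have such copies, and shares 43 bases with mt-Atp6. The search covered annotated transcripts only, so it cannot clear mt-Atp8 or the other members.

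All 10 members were among the abundant genes of these femurs, and all passed the filter of 1 FPKM in at least 3 libraries. By mean FPKM mt-Atp8 ranked 3 among all genes, mt-Co2 ranked 8 and mt-Co1 ranked 10, and mt-Nd5, the lowest member, ranked 170. The rank of mt-Atp8 is uncertain, since FPKM is per length and this gene has only 204 bases. mt-Atp8 lay above every other member in every library. mt-Co1 and mt-Co2 had overlapping ranges, and so did each pair of neighbours below them in the order mt-Nd4, mt-Cytb, mt-Nd1, mt-Nd3, mt-Nd6, mt-Nd2 and mt-Nd5.

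Among the complex I genes, mt-Nd3 and mt-Nd4 had the largest group differences. mt-Nd3, a small subunit at the junction of the membrane arm and the matrix arm, had 1835, 1744 and 1477 FPKM in OE 1, 2 and 3, with 1053 for the library labelled Ctrl 1, 949 for Ctrl 2 and 684 for Ctrl 3. Every OE library was above every Ctrl library, and Ctrl 3 was the lowest. The means were 1685 ± 186 FPKM over OE and 895 ± 191 over Ctrl (SD, n = 3), a 1.88-fold ratio and a difference of 0.93 (SE 0.25) in log2(FPKM + 1). mt-Nd4, a proton-pumping subunit, had 4374, 2507 and 3336 FPKM in OE 1, 2 and 3, with 1526 for the library labelled Ctrl 1, 1659 for Ctrl 2 and 2324 for Ctrl 3. The groups did not overlap, but OE 2 was close to Ctrl 3. Its ratio was 1.85-fold, with 3406 ± 936 FPKM over OE and 1837 ± 427 over Ctrl (SD, n = 3), and 1.71-fold without the library labelled Ctrl 1.

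mt-Nd2, another proton-pumping subunit, had 1326, 888 and 946 FPKM in OE 1, 2 and 3, with 620.0 for the library labelled Ctrl 1, 585 for Ctrl 2 and 619.7 for Ctrl 3. The 3 Ctrl libraries lay close together, within a ratio of 1.06, and OE 1 stood above the other OE libraries. Its log2 difference was 0.77 (SE 0.22), a 1.73-fold ratio of means. mt-Nd1, a membrane subunit next to the quinone-binding site, had 2172, 1848 and 1855 FPKM in OE 1, 2 and 3, with 1507 for the library labelled Ctrl 1, 1681 for Ctrl 2 and 1485 for Ctrl 3. Its groups did not overlap, but its ratio of 1.26 was lower than those of mt-Nd2, mt-Nd3 and mt-Nd4.

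The groups overlapped in mt-Nd5 and mt-Nd6, the pair encoded on opposite strands. mt-Nd5, the largest of the proton-pumping subunits, had 924, 447 and 735 FPKM in OE 1, 2 and 3, with 273 for the library labelled Ctrl 1, 453 for Ctrl 2 and 668 for Ctrl 3. OE 2 lay below both Ctrl 2 and Ctrl 3, and the highest library was 3.38 times the lowest, the widest span of any member. Its log2 difference of 0.62 (SE 0.40) was 0.29 without the library labelled Ctrl 1 and 0.39 without OE 1. mt-Nd6 had 1022, 802 and 1012 FPKM in OE 1, 2 and 3, with 607 for the library labelled Ctrl 1, 917 for Ctrl 2 and 807 for Ctrl 3. Here too OE 2 lay below Ctrl 2 and Ctrl 3, and the log2 difference of 0.29 (SE 0.24) was 0.13 without the library labelled Ctrl 1.

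mt-Cytb, the cytochrome b of complex III, is the 1 subunit of that complex made in the mitochondrion. Its values were 2905, 2254 and 2314 FPKM for OE 1, 2 and 3, then 1813 for the library labelled Ctrl 1, 1701 for Ctrl 2 and 1619 for Ctrl 3. All OE values were above all Ctrl values, with 2491 ± 360 FPKM over OE and 1711 ± 97.6 over Ctrl (SD, n = 3), a 1.46-fold ratio and a log2 difference of 0.53 (SE 0.23).

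In complex IV, mt-Co1, which holds the site where oxygen is reduced, had 5743, 4912 and 4963 FPKM in OE 1, 2 and 3, with 4198 for the library labelled Ctrl 1, 4433 for Ctrl 2 and 4299.8 for Ctrl 3. This was the smallest ratio of all members, 1.21-fold, and the span between the highest and lowest library was also the smallest, at 1.37-fold. mt-Co2, which takes electrons from cytochrome c, had 5838.5, 5809 and 5359 FPKM in OE 1, 2 and 3, with 4508 for the library labelled Ctrl 1, 4602 for Ctrl 2 and 3786 for Ctrl 3. The groups did not overlap in either gene, and the ratio for mt-Co2 was 1.32-fold, with 5669 ± 268 FPKM over OE and 4299 ± 447 over Ctrl (SD, n = 3).

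mt-Atp8, a small subunit of the ATP synthase stator, had 17302, 14437 and 15666 FPKM in OE 1, 2 and 3, with 10094 for the library labelled Ctrl 1, 11987.5 for Ctrl 2 and 12813 for Ctrl 3. The groups did not overlap, and the library labelled Ctrl 1 was the lowest. The means were 15802 ± 1438 FPKM over OE and 11632 ± 1394 over Ctrl (SD, n = 3), a 1.36-fold ratio. Without the library labelled Ctrl 1 that ratio was 1.27-fold. At 204 bases it is the shortest member, and it took 38.5% to 44.0% of the members' summed FPKM in a library. Weighted by gene length, which only approximates a share of fragments, mt-Atp8 took 10.8% to 12.5% of the members' total and mt-Co1 took 27.7% to 34.0%. How FPKM was corrected for so short a gene is not given in the sources used here. mt-Atp6, which mt-Atp8 overlaps, had no row. The level of mt-Atp8, and the shares that rest on it, are therefore uncertain.

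**Figure D1:**
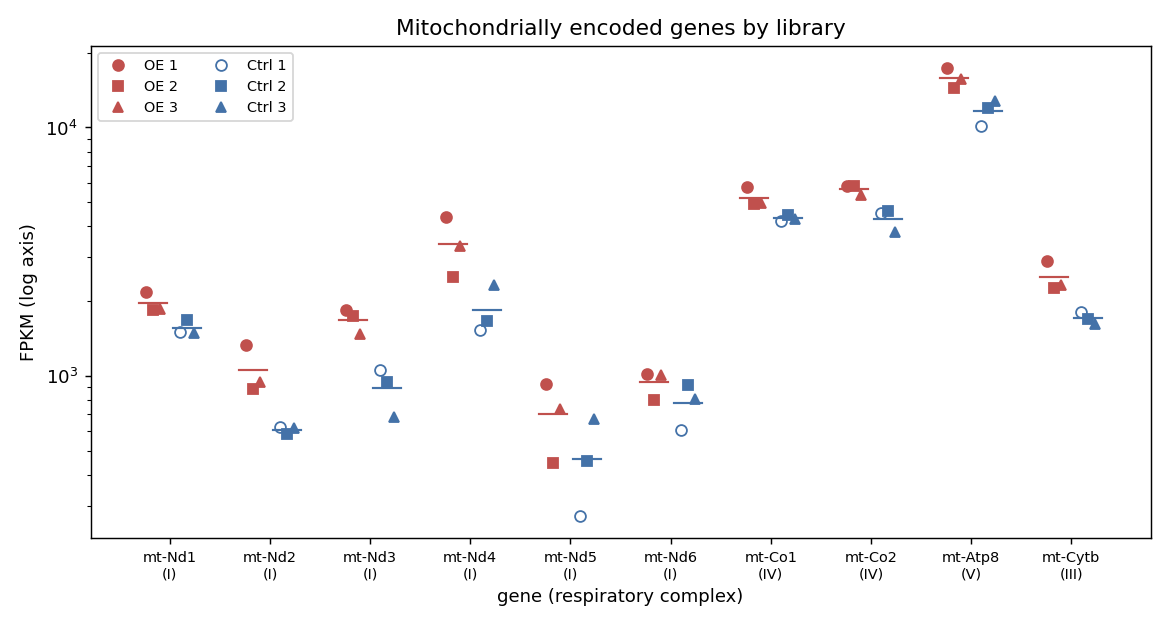
FPKM (log axis) of the 10 genes, with the respiratory complex in brackets; red symbols are OE libraries, blue symbols Ctrl libraries, the open circle is the library labelled Ctrl 1, and horizontal lines are group means (n = 3). The groups are apart in 8 genes and overlap in mt-Nd5 and mt-Nd6.

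Across the 10 members, every OE library lay above every Ctrl library in 8, beside 4.59% of the 12177 genes tested. The log2 difference was positive in all 10, beside 43.7% of genes tested, with a median of 0.49 beside -0.04 over all genes. These values chose the members, and nothing is read from the counts. OE 1 was the highest library for all 10 members, and OE 2 the lowest OE library for 8. The library labelled Ctrl 1 lay below every OE library in all 10 members and below both other Ctrl libraries in 5. It lay above both in mt-Nd2, mt-Nd3 and mt-Cytb and between them in mt-Nd1 and mt-Co2. Its summed osteoblast and osteocyte markers lay within the OE range. Across the whole table, limma called 0 of 12177 genes between OE and Ctrl at an adjusted p of 0.05, or 0%. An unadjusted p under 0.05 was found for 999 genes, or 8.2%, and 4.12% of genes had one and were higher in OE. Without a trend in limma 996 genes had one and again 0 were called. Without the library labelled Ctrl 1 the ratios ran from 1.10-fold for mt-Nd6 to 2.06-fold for mt-Nd3. Leaving out a library cannot make separate groups overlap, so the 8 genes stay apart under any such omission. The overlap in mt-Nd5 and mt-Nd6 came from OE 2. With every library rescaled to the same FPKM total, 4 of the 10 members were apart, beside 4.72% of genes tested.

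The share of all FPKM that the members took was less separated than their FPKM. The 10 genes together took 7.07%, 4.59% and 6.31% in OE 1, 2 and 3, with 3.57% for the library labelled Ctrl 1, 3.79% for Ctrl 2 and 4.69% for Ctrl 3. OE 2 thus lay just below Ctrl 3, and the means were 5.99% ± 1.27 over OE and 4.02% ± 0.590 over Ctrl (SD, n = 3). The Ctrl mean was 4.24% without the library labelled Ctrl 1. FPKM totals differed between libraries, from 596413 in OE 3 to 775942 in OE 2, and a library with a high total gives its members a lower share. By complex, the 6 complex I genes took 1.06% to 1.90% in OE and 0.762% to 1.06% in Ctrl. mt-Cytb of complex III took 0.290% to 0.473% in OE and 0.223% to 0.261% in Ctrl. The 2 complex IV genes took 1.38% to 1.88% in OE and 1.18% to 1.30% in Ctrl, and mt-Atp8 took 1.86% to 2.82% in OE and 1.38% to 2.06% in Ctrl. The groups overlapped in the share of mt-Atp8, and the other 9 genes together took 2.73% to 4.25% of all FPKM in OE and 2.20% to 2.62% in Ctrl, with no overlap.

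**Figure D2:**
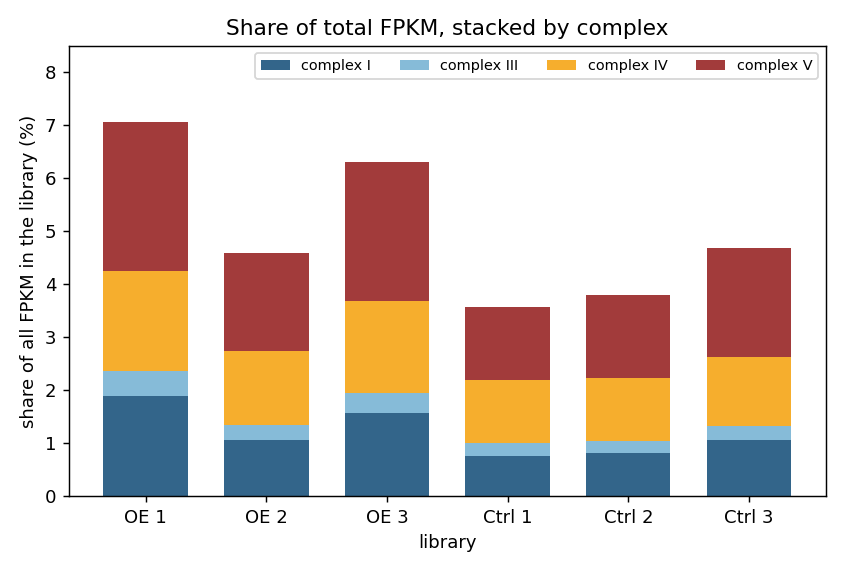
Share of all FPKM in each library (%) taken by the members, stacked by respiratory complex (complex I, 6 genes; III, 1; IV, 2; V, 1). OE 1 has the largest stack at 7.07%, the library labelled Ctrl 1 the smallest at 3.57%, and OE 2 at 4.59% is level with Ctrl 3 at 4.69%.

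Very abundant genes make up part of these totals. S100a8 and S100a9, the calprotectin genes of neutrophils, took 16.3% of FPKM in OE 2 and 7.25% in OE 3, with 11.6% to 13.5% elsewhere. Haemoglobin genes took 7.45% in OE 3 and at most 1.26% elsewhere. With these genes left out of the total, the members took 8.15%, 5.51% and 7.40% in OE 1, 2 and 3, with 4.14% for the library labelled Ctrl 1, 4.43% for Ctrl 2 and 5.35% for Ctrl 3. The groups no longer overlapped.

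The members did not all follow the same order of libraries. mt-Nd3 and mt-Co2 were the most alike, with Pearson's r = 0.99 over the 6 libraries, and mt-Nd2 and mt-Cytb were close behind at 0.99. mt-Nd3 and mt-Nd5 were the least alike, at 0.27. These correlations share libraries and scaling and are given as a description. After taking out each gene's mean and each library's mean over the members, mt-Nd5 stood at 0.52 in Ctrl 3 and at -0.60 in the library labelled Ctrl 1 on the log2 scale, and mt-Nd3 at -0.61 in Ctrl 3 and 0.42 in OE 2. mt-Atp8 lay closest to the common pattern, within 0.14 in every library.

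**Figure D3:**
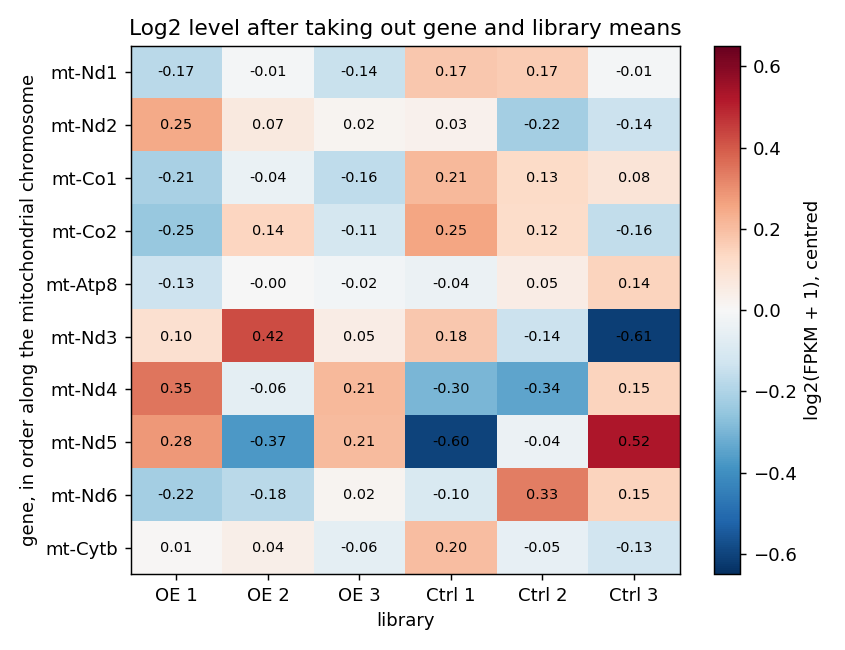
Log2(FPKM + 1) of each member after subtracting its own mean and the mean of the members in that library, with genes in order along the chromosome; red is above and blue below the common pattern. mt-Nd3 and mt-Nd5 hold the extremes, at -0.61 and 0.52 in Ctrl 3.

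The ratio of mt-Nd5 to mt-Co2 differed 2.91-fold between libraries and overlapped between the groups. It was 0.158, 0.0769 and 0.137 in OE 1, 2 and 3, with 0.0605 for the library labelled Ctrl 1, 0.0985 for Ctrl 2 and 0.176 for Ctrl 3. At 1824 and 684 bases these are a long and a short member. Among all genes tested, the 586 with a longest transcript under 1 kb were set against the 6728 with one of 3 kb or more. The median log2 deviation of short minus long genes was -0.23, 0.26 and -0.0037 in OE 1, 2 and 3, with 0.24 for the library labelled Ctrl 1, 0.10 for Ctrl 2 and -0.35 for Ctrl 3. Libraries with more short transcripts, OE 2 and the library labelled Ctrl 1, had the lowest mt-Nd5 to mt-Co2 ratios, and Ctrl 3 had the fewest short transcripts and the highest ratio. The part of this balance in the members' levels was not tested. With a transcript length adjustment, added after seeing the data, the span of the log2 ratio went from 1.54 to 1.30 and the mean group difference of the members from 0.55 to 0.60. OE 2 then lay below Ctrl 3 in the members' mean, at 10.89 against 10.99. On that scale 4 of the 10 members had groups that did not overlap, beside 7.26% of all genes, and these were mt-Nd2, mt-Nd3, mt-Co2 and mt-Cytb. The same 4 were apart when each library was rescaled to the same FPKM total.

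**Figure D4:**
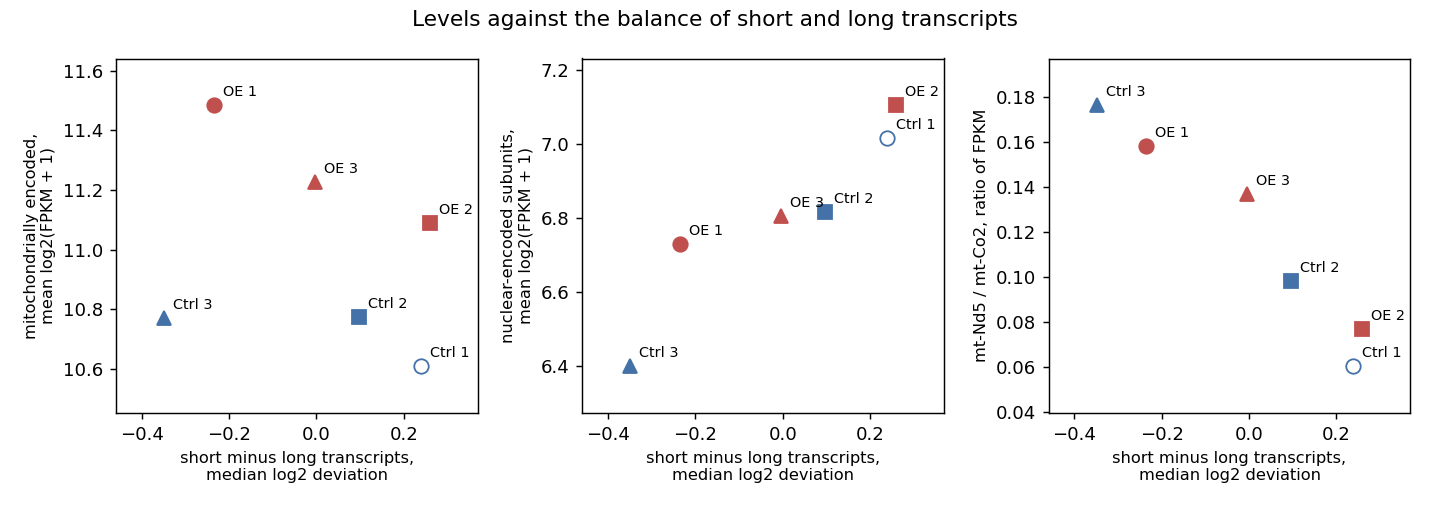
Each point is a library, placed by the median log2 deviation of short (under 1 kb) minus long (3 kb or more) transcripts on the horizontal axis; red is OE, blue is Ctrl and the open circle is the library labelled Ctrl 1. The nuclear-encoded subunits (middle) run from 6.40 in Ctrl 3 to 7.11 in OE 2 along this axis and the mt-Nd5 to mt-Co2 ratio (right) runs the other way. The members (left) lie apart by group in the values that chose them. Within OE they also fall along the axis, from 11.48 in OE 1 to 11.09 in OE 2. After length adjustment the groups overlap in the members' mean.

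The nuclear-encoded partners of the members, which the choice of members did not use, showed no call between the groups. Of 79 subunits listed for complexes I to V, 78 were measured and tested, and limma called 0 in either direction, beside 0% of all genes. At an unadjusted p under 0.05 there were 4 of 78, beside 8.2% of all genes. Every OE library lay above every Ctrl library for 2 of the 78 and below for 2, beside 4.59% and 8.97% of all genes. Their log2 differences were positive in 50 of 78, or 64.1%, beside 43.7% of all genes, with a median of 0.09 beside -0.04. That median rested on single libraries: it was -0.04 without OE 2, -0.08 without Ctrl 3, 0.14 without Ctrl 2, 0.17 without OE 1 and, with the library labelled Ctrl 1 left out, 0.20. The mean level of the 78 in log2(FPKM + 1) was 6.73, 7.11 and 6.81 in OE 1, 2 and 3, with 7.02 for the library labelled Ctrl 1, 6.82 for Ctrl 2 and 6.40 for Ctrl 3. This order of libraries is the same as that of short minus long transcripts, and 37 of the 78 are under 1 kb. After the length adjustment the span of this mean went from 0.71 to 0.36, and OE 1, 2 and 3 (6.89, 6.94 and 6.86) lay above the library labelled Ctrl 1 (6.85), Ctrl 2 (6.69) and Ctrl 3 (6.58). The difference of the means was then 0.19.

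By complex, the medians of the nuclear-encoded subunits moved with single libraries. The complex I median over 36 subunits was 0.08, with 0.18 when the library labelled Ctrl 1 was left out and -0.06 without Ctrl 3. For the 9 subunits of complex III it was 0.13, with 0.35 and -0.08 under the same omissions, and for the 15 of complex V it was 0.03, with 0.11 and -0.11. Without OE 2 these medians were 0.00075, -0.01 and -0.08, and without OE 1 they were 0.17, 0.21 and 0.14. The 4 genes of complex II, which has no mitochondrially encoded part, had a median of -0.10, and it ran from -0.18 without Ctrl 3 to -0.03 without Ctrl 2. Sdhc, a membrane anchor of complex II, had 47.4, 53.9 and 40.6 FPKM in OE 1, 2 and 3, with 72.3 for the library labelled Ctrl 1, 72.6 for Ctrl 2 and 56.5 for Ctrl 3, so OE lay below Ctrl with a log2 difference of -0.50 (SE 0.17, limma adjusted p = 0.554). Sdha, the flavoprotein of complex II, was also below, at 78.7 ± 2.15 FPKM over OE and 86.7 ± 4.42 over Ctrl (SD, n = 3; limma adjusted p = 0.700). In complex I the accessory subunit gene Ndufa5 averaged 61.6 ± 5.06 FPKM over OE and 42.0 ± 13.4 over Ctrl (SD, n = 3; limma adjusted p = 0.554), and Ndufc1 at 73.0 ± 18.6 and 54.9 ± 15.1 (limma adjusted p = 0.588). Uqcr10 and Uqcr11, small subunits of complex III, differed by 0.47 (SE 0.25, limma adjusted p = 0.561) and 0.45 (SE 0.24, limma adjusted p = 0.563). Atp5k and Atp5j2 of complex V differed by 0.35 (SE 0.24, limma adjusted p = 0.605) and 0.30 (SE 0.29, limma adjusted p = 0.706).

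Complex IV had a median of 0.17 over 14 subunits with 12 positive, and its largest differences were in muscle isoforms. That median was 0.30 with the library labelled Ctrl 1 left out, 0.28 without OE 1, 0.04 without OE 2 and -0.01 without Ctrl 3. Cox8b, a heart and skeletal muscle isoform, had 68.6, 38.7 and 54.7 FPKM in OE 1, 2 and 3, with 39.8 for the library labelled Ctrl 1, 5.38 for Ctrl 2 and 8.76 for Ctrl 3 (log2 difference 1.97, SE 0.65, limma adjusted p = 0.554). Cox7a1, the muscle form of another small subunit, had 28.8, 25.9 and 31.8 FPKM in OE 1, 2 and 3, with 19.5 for the library labelled Ctrl 1, 4.48 for Ctrl 2 and 6.89 for Ctrl 3 (limma adjusted p = 0.554). Of their widely expressed counterparts, Cox8a averaged 391 FPKM over OE and 461 over Ctrl (limma adjusted p = 0.731), and Cox7a2 averaged 127 and 113 (limma adjusted p = 0.816). Without the library labelled Ctrl 1, limma called 597 of all genes, or 4.9%. It then called 3 of the 78 nuclear subunits higher, a share no larger than the 4.25% of all genes. Nothing is read from that count. The 3 were Cox6a2 (limma adjusted p = 0.0102), Cox7a1 (limma adjusted p = 0.00509) and Cox8b (limma adjusted p = 0.00766), all muscle isoforms. The skeletal muscle markers summed to 1674, 1347 and 1735 FPKM in OE 1, 2 and 3, with 1523 for the library labelled Ctrl 1, 229 for Ctrl 2 and 329 for Ctrl 3, and 6 of the 7 were also called higher without the library labelled Ctrl 1. The library labelled Ctrl 1, with muscle markers in the OE range, was lowest of all in 5 members. It was above Ctrl 2 and Ctrl 3 in mt-Nd2, mt-Nd3 and mt-Cytb, and between them in mt-Nd1 and mt-Co2. The part of muscle RNA in the members' levels was not tested.

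Set against their nuclear-encoded partners within each library, the members were higher by 4.75, 3.98 and 4.42 in mean log2(FPKM + 1) in OE 1, 2 and 3. The gap was 3.59 for the library labelled Ctrl 1, 3.96 for Ctrl 2 and 4.37 for Ctrl 3. The groups overlapped, since Ctrl 3 lay above OE 2, and the mean gap was 4.39 ± 0.386 over OE and 3.97 ± 0.390 over Ctrl (SD, n = 3). The group difference of 0.41 was 0.22 without the library labelled Ctrl 1 and 0.23 without OE 1. By complex it was 0.56 for complex I, and 0.35 when the library labelled Ctrl 1 was omitted or 0.33 when OE 1 was. The gap difference for complex III was 0.40, and 0.34 and 0.21 under those omissions. Complex V gave 0.39, and 0.19 and 0.24, and its value was 0.63 without Ctrl 3. Complex IV gave -0.11, which was -0.36 with the library labelled Ctrl 1 omitted, -0.19 without OE 1 and -0.02 without OE 2. It was -0.01 without Ctrl 2 and 0.04 without Ctrl 3, the only single omission that changed its sign. The nuclear-encoded mean for complex IV includes the muscle isoforms Cox6a2, Cox7a1 and Cox8b, with log2 differences of 1.03, 1.63 and 1.97. The gap without these isoforms was not calculated.

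Nuclear genes that copy, transcribe and process mitochondrial DNA and RNA also gave no call. Of 39 listed, 38 had a row and 36 passed the filter, and limma called 0 in either direction, beside 0% of all genes. At an unadjusted p under 0.05 there were 2 of 36, beside 8.2% of all genes. Of the 36, 15 or 41.7% were positive, beside 43.7% of all genes. The median log2 difference was -0.04 beside -0.04 over all genes. Leaving out 1 library moved that median between -0.08 without Ctrl 3 and 0.03 without Ctrl 2. In replication and packaging, Polg, the mitochondrial DNA polymerase, averaged 21.0 ± 3.38 FPKM over OE and 24.2 ± 2.52 over Ctrl (SD, n = 3; limma adjusted p = 0.656), and its accessory subunit Polg2 at 2.58 ± 0.430 and 2.94 ± 0.315 (limma adjusted p = 0.751). In transcription, Mterf2 had 2.92, 2.10 and 2.95 FPKM in OE 1, 2 and 3, with 1.77 for the library labelled Ctrl 1, 1.46 for Ctrl 2 and 1.33 for Ctrl 3, so the groups did not overlap (limma adjusted p = 0.554). Mterf3, of the same family, averaged 13.3 FPKM over OE and 11.1 over Ctrl, with overlapping groups (limma adjusted p = 0.570).

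Among RNA processing genes, Slirp and Tbrg4 lay on opposite sides. Slirp, which with Lrpprc keeps mitochondrial messengers stable, averaged 27.8 ± 5.83 FPKM over OE and 19.0 ± 6.12 over Ctrl (SD, n = 3; limma adjusted p = 0.554). Tbrg4, a FAST kinase family protein that acts on mitochondrial RNA, had 20.2, 25.6 and 18.9 FPKM in OE 1, 2 and 3, with 28.9 for the library labelled Ctrl 1, 30.7 for Ctrl 2 and 26.0 for Ctrl 3, below Ctrl in every OE library (limma adjusted p = 0.554). Of the regulators of mitochondrial biogenesis, Esrra averaged 18.6 ± 3.16 FPKM over OE and 23.8 ± 2.07 over Ctrl (SD, n = 3; limma adjusted p = 0.554) and Pprc1 at 8.11 ± 1.46 and 6.90 ± 0.826 (limma adjusted p = 0.670). Neither passed.

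The genes whose levels over the 6 libraries were most like the members' mean were sought among 6572 nuclear genes with a symbol and a mean of at least 10 FPKM. Pearson's r reached 0.9 in 14 of them, and the 8 highest were Strn3 (0.99), Serinc1 (0.99), Ergic2 (0.96), Rsrc1 (0.94), Cald1 (0.93), Uba3 (0.92), Twf1 (0.92) and Tmem65 (0.92). With 6 libraries and this many genes these are a description only. Strn3 had 16.6, 14.7 and 15.3 FPKM in OE 1, 2 and 3, with 11.9 for the library labelled Ctrl 1, 13.4 for Ctrl 2 and 12.9 for Ctrl 3. Its span of 0.45 in log2(FPKM + 1) was narrower than the 0.87 of the members' mean, and of the 8 genes Cald1 (0.92) and Tmem65 (0.89) had the widest spans. Other marker lists took other orders: erythroid markers were highest in OE 3, at 45276 FPKM against 1393 to 10000.2 in the other libraries, and neutrophil markers were highest in OE 2 and lowest in OE 3. B-cell markers were highest in OE 3, at 507 FPKM, and so were adipocyte markers, at 280.04. Osteoclast markers ran from 1299.8 to 3719 FPKM among OE libraries, with 3163 for the library labelled Ctrl 1, 1030.5 for Ctrl 2 and 993 for Ctrl 3.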

How the data were processed

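Each library has 1 deposited list of genes with FPKM values, named so per the file headers. The submitters' processing notes name mm10 and the tools TopHat2, Cufflinks and DESeq. For their versions and roles, the strand setting and fragments that fit several places, nothing is given in the sources used here. Of 22824 rows, 21172 matched a symbol in GENCODE M21 (GRCm38, the assembly mm10 names). Groups and replicate numbers come from the sample titles. log2(FPKM + 1) was fitted with limma 3.58.1 in R 4.3.3 (eBayes with trend) for the 12177 genes that reached 1 FPKM in 3 or more libraries, and p-values were adjusted by Benjamini-Hochberg at 0.05. The fit was also run on simulated data, whose outcome is not given here. The smallest limma adjusted p between OE and Ctrl was 0.554. With 3 libraries in each group, 0 calls do not show that levels were equal. Fold ratios are of mean FPKM. Lists and summaries used Python 3.11.15 with pandas 2.3.3, and nuclear copies came from BLAST 2.17.0. Relative depth came from the steps between low values. The members and lists were chosen with earlier results of these data known. Named nuclear genes are the 2 largest absolute differences of each list, the 8 genes most like the members, Wnt7b, and nuclear copies; Cox6a2, Cox8a, Cox7a2 and Cox4i2 were named after their values were seen. Length adjustment subtracted each library's median deviation over 20 bins of longest transcript length.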

Additional observations from a re-analysis of the deposited data

How the results depend on the processing

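The 10 member differences were positive under all 15 alternative settings, from 0.07 to 1.15 in log2. Their mean ran from 0.44 to 0.64, with 0.60 under trimmed-mean scaling. The members were chosen with these differences known, so this is a description. Other filters, limma without a trend and the replicate block cannot change a member's difference. The group difference in the members' share of FPKM ran from 1.44 to 2.67 percentage points when 1 library was left out. Counts of called genes depended on the library labelled Ctrl 1. Leaving out 1 library gave 0 to 597 of 12177 genes called and 0 to 3 of 78 nuclear-encoded subunits. The highest values came without the library labelled Ctrl 1, where 4.9% of all genes were called. Leaving out OE 3 as well, rescaling to one FPKM total and the length adjustment were chosen after seeing the data. With OE 3 and the library labelled Ctrl 1 left out, 1388 of 12177 genes were called, 964 of them higher in OE. The subunits called were 5 of 78, a smaller share than over all genes. They were Ndufa5, Cox4i2, Cox6a2, Cox7a1 and Cox8b, all higher in OE, and the cause was not tested. No other setting called any gene. Whether groups overlap depends on scaling. As deposited 8 of 10 members were apart, beside 4.59% of all genes with OE above Ctrl, and with trimmed-mean scaling 8, beside 5.86%. When rescaled to the same FPKM total 4 were apart, beside 4.72%, and after length adjustment 4, beside 7.26%. Replicate numbers are shared by the groups. Same-numbered libraries deviated together with correlations of 0.44, 0.087 and 0.31, and 3 of 6 libraries correlated best with their own number. These values do not settle whether the numbers mark pairs, and the main fit does not pair them. With the replicate number as a block limma called 0 genes and 1797 had an unadjusted p under 0.05, beside 999 without the block. The members' mean difference was again 0.55, which a balanced block cannot change. Depth is unknown, and the members lie far above the low values that depth limits.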
